A study of Mus musculus with 24 samples.

Results

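The genes described here are 10 genes of TGF-beta and activin signalling, out of 53801 genes listed, in pancreatic stellate cells (PSC) cultured with or without pancreatic cancer cells. They were chosen by name: the ligand genes Tgfb1, Tgfb2, Tgfb3 and Inhba, the genes Ltbp1 and Ltbp2 of latent TGF-beta binding proteins, the receptor genes Tgfbr1 and Tgfbr2, the feedback inhibitor Smad7 and the secreted matrix protein gene Tgfbi. All 10 were listed and all 10 passed the filter on low values in every comparison. PSC came from wild-type C57BL/6J mice, whose pancreata were pooled for each isolation, and the KPC cells were a single line from a mouse tumour in which p48-Cre switches on a mutant Trp53 allele in the pancreas. PSC sat on a porous membrane, and the KPC cells either covered the floor of the well below it (standard co-culture, distant) or its lower face (inverse co-culture, close). For either model, PSC with KPC cells and PSC on their own (control) were harvested after 24 h or 72 h, which gives 8 groups of 3 libraries. The inverse model differed in further ways. Its KPC cells had been attached before PSC were added. The 2 cell types therefore shared the well from the seeding of PSC on, for longer than the stated times. Its PSC, controls included, were seeded in the medium of the experiment. Standard PSC and their controls were seeded in another medium, which was changed when the count of hours began. Libraries of the inverse model took 120 ng of RNA where standard ones took 450 ng. These differences cannot be told apart from the model.

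TGF-beta is secreted in a latent complex, in which the cleaved propeptide still holds the growth factor and is itself bound to a latent TGF-beta binding protein in the matrix. Once released, TGF-beta binds the type II receptor TGFBR2, which recruits and phosphorylates the type I receptor TGFBR1, and TGFBR1 phosphorylates SMAD2 and SMAD3. Activin A, a dimer of the product of Inhba, uses other receptors but the same SMAD proteins, and SMAD7 blocks the type I receptors. In the pancreas TGF-beta is known as a main signal for the activation of PSC and for the matrix that they deposit.

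The stretches of 250 bases upstream of the annotated start are shown for Tgfb1 and Tgfbr1, whose mean levels were higher in every co-culture group than in any control group, and for Tgfb2, whose means were arranged the other way round. They are RefSeq sequences of GRCm38.p6, written from 5′ to 3′ on the strand of the gene, and lie at chr7:25686752-25687001 (Tgfb1, + strand), chr4:47352972-47353221 (Tgfbr1, + strand) and chr1:186705990-186706239 (Tgfb2, − strand). Capitals mark GGGCGG, the GC box, in either orientation in Tgfb1 and Tgfbr1, and TATAAA, the TATA box, in Tgfb2.
Tgfb1: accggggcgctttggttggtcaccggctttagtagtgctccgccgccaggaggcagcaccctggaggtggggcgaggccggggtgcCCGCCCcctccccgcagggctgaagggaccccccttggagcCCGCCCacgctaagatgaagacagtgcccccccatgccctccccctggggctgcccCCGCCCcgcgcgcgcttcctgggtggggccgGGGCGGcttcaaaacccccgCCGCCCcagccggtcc
Tgfbr1: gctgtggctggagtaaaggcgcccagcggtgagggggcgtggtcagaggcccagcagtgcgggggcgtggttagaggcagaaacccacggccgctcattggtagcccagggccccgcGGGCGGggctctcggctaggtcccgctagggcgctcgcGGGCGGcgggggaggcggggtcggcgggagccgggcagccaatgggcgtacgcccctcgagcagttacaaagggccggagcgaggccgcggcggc
Tgfb2: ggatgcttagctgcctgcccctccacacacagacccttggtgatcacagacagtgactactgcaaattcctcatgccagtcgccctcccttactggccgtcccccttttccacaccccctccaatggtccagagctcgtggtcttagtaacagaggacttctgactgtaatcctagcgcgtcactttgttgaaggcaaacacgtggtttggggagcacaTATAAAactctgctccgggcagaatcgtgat
The Tgfb1 stretch held 5 GC boxes at 75.2% G and C, and the Tgfbr1 stretch shown held 2 at 74.8%. The median over all 32851 stretches of this length was 52.4% G and C. A second Tgfbr1 stretch, at chr4:47385966-47386215 and not shown, held 0 GC boxes at 52.8% G and C. The Tgfb2 stretch had no GC box, 1 TATA box and 53.6% G and C. GGGCGG was found in 32.7% of all stretches and in 4 of the 10 that belong to these genes, and TATAAA in 12.4% and in 2. These letters were picked after the levels had been seen. No match was found in the 10 stretches, on either strand, for the SMAD-binding palindrome GTCTAGAC (0.167% of all stretches), the CAGA box AGCCAGACA (0.301%), the AP-1 motif TGANTCA (6.75%) or the TEAD motif ACATTCC (3.25%). Stretches were at hand for 8 of the 10 genes.

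The libraries held between 15932737 and 24798761 counted fragments, with a median of 18860269, so that even Tgfbi, the gene with the smallest count, rested on 65 to 571 fragments in a library. Values are FPKM, that is fragments per kilobase of gene, scaled to the counted fragments of the library. Of 10 PSC and fibroblast markers, 9 had a mean FPKM above 1 in every group, whereas Gfap was at or near 0 with a highest value of 0.24. Markers of endothelial cells summed to 0.01 to 0.65. Replicate 1 of the standard model stood apart: its control libraries held 135 and 114 FPKM of Tgfb3, against 28.0 to 29.3 in the other 4 control libraries of that model. Same-numbered libraries of the standard model deviated together from their group means, so a blocked fit, with the number as a term, is given where it changes a call, and results are also given without replicate 1. Replicate 1 of that model also had the lowest sums of 6 adipocyte markers (249 to 582 FPKM, against 1165 to 2042 in replicates 2 and 3), and replicate 2 the highest sums of 8 macrophage and leukocyte markers (319 to 1055, against 35.5 to 153). In the inverse model same-numbered libraries did not deviate together.

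**Figure D1:**
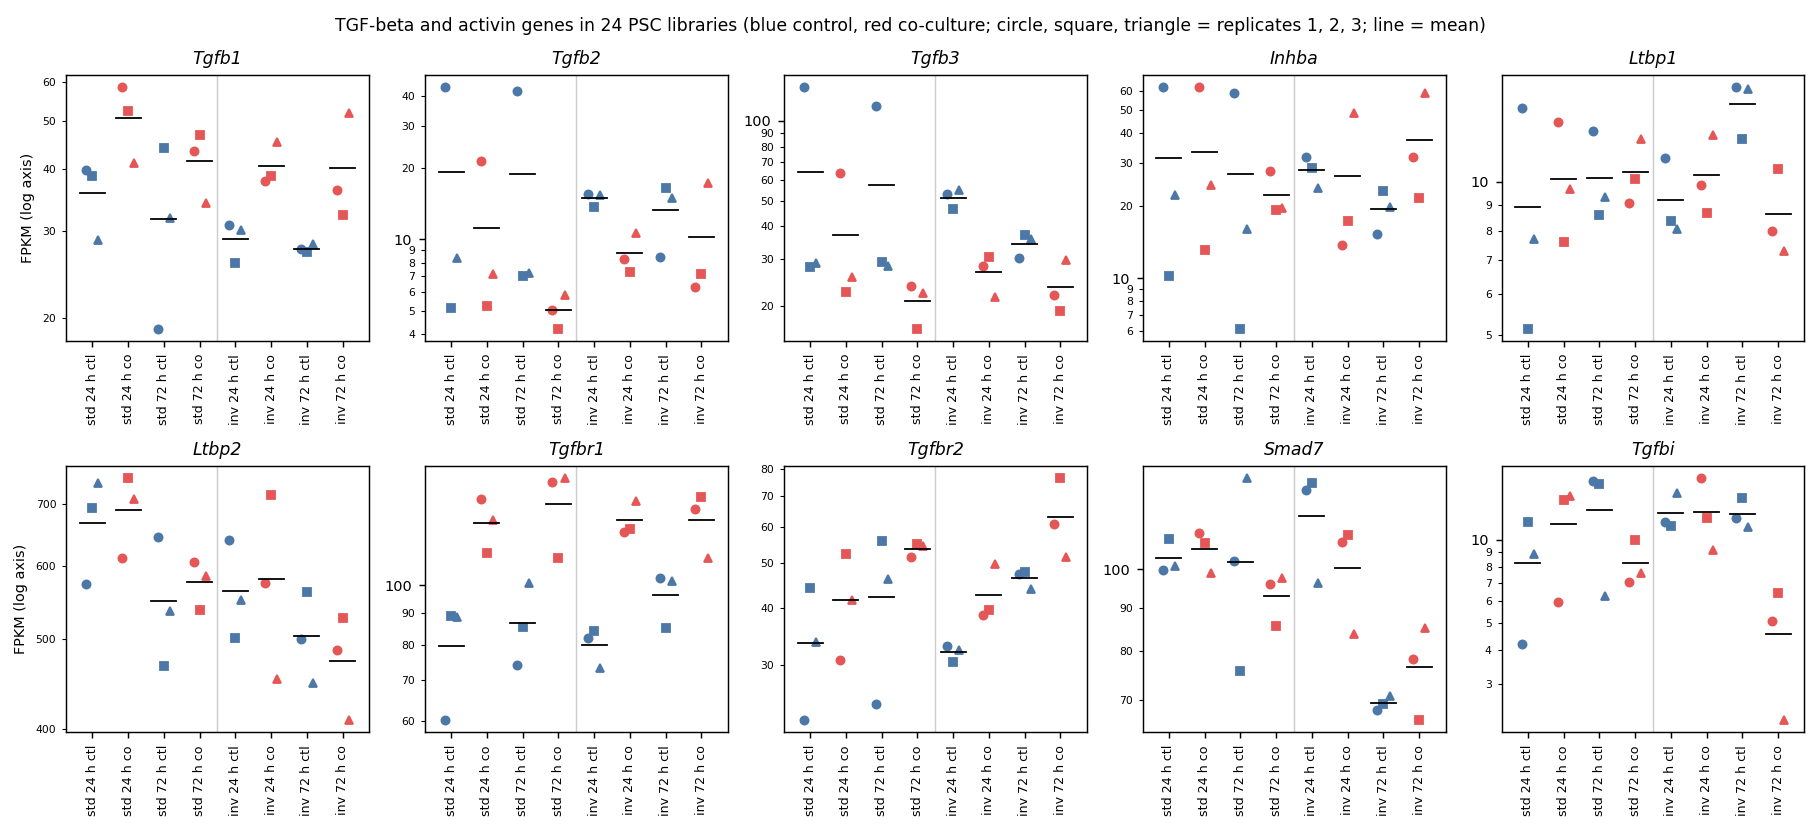
FPKM (log axis) of the 10 genes in the 8 groups, standard model left and inverse model right of the grey line. Points are libraries, their shape the replicate number, blue for control PSC and red for co-cultured PSC, and black lines are group means. In Tgfbr1 the red points lie above the blue points of the same model and time in all 4 pairs of groups, and the circles of replicate 1 lie far above the others in the standard control groups of Tgfb2, Tgfb3 and Inhba.

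Ltbp2 was the most abundant of the 10 genes, with a mean of 576 FPKM over the 24 libraries and a range of 408 to 748. Tgfbr1 followed with a mean of 108 FPKM, then Smad7 with 95.7, Tgfbr2 with 44.4, Tgfb3 with 39.4, Tgfb1 with 37.1 and Inhba with 28.1. Tgfb2 (12.7), Tgfbi (10.4) and Ltbp1 (10.3) were the lowest. The length behind these FPKM values is the mean of the annotated transcripts of a gene, which for Tgfb1 is 1236 bases although its longest transcript has 2573. Per kilobase of the longest transcript, Ltbp2 and Tgfbr1 kept the leading places, with 315 and 46.8, but Tgfb3 (39.4) then came next and was above Tgfb1 (17.8), and Tgfb2 (4.52) was last. Levels are therefore compared below within a gene.

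Tgfb1 (GRCm38 chr7:25687002-25705077, + strand), the best known of the TGF-beta ligand genes, had higher mean levels in co-cultured PSC. At 24 h in the inverse model the 3 control libraries held 30.7, 25.7 and 30.1 FPKM and the 3 co-culture libraries 37.7, 38.6 and 45.2. At 72 h the control libraries held 27.5, 27.1 and 28.2 FPKM and the co-culture libraries 36.3, 32.2 and 51.8. The groups did not overlap at either time, but the log2 fold changes of 0.48 (SE 0.12) and 0.50 (SE 0.17) missed the limit, with an adjusted p of 0.091 at both times (limma, 95% confidence intervals 0.20 to 0.76 and 0.11 to 0.90). At 72 h the call depended on the scaling of the libraries, since scaling by the median of gene ratios gave 0.66 and an adjusted p of 0.0465, and it passed without co-culture replicate 2 (0.64, adjusted p = 0.047).

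Standard control libraries at 24 h held 39.8, 38.6 and 28.8 FPKM of Tgfb1 and standard co-culture libraries 58.6, 52.4 and 41.1. All 3 co-culture libraries were above all 3 controls, at a log2 fold change of 0.50 (SE 0.19, adjusted p = 1.00). In the blocked fit the same change had an SE of 0.08 and a limma adjusted p of 0.044, so that Tgfb1 rose there. That fit called 0.661% of the genes tested as higher. By 72 h the controls held 18.98, 44.1 and 31.8 FPKM and the co-culture libraries 43.5, 46.8 and 34.1, and the groups overlapped (log2 fold change 0.45, SE 0.31, adjusted p = 0.82). Without replicate 1 the log2 fold change was 0.47 at 24 h but 0.09 at 72 h (adjusted p = 0.61 and 0.86). Ordered by their means, the 4 co-culture groups, at 40.1 to 50.7 FPKM, were all above the 4 control groups, at 27.6 to 35.7, although all 7 neighbours in that order overlapped.

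Tgfb3 (chr12:86056745-86079041, − strand) and Tgfb2 (chr1:186622792-186705989, − strand), the genes of the other TGF-beta ligands, had lower mean levels in co-cultured PSC, and the change of Tgfb3 at 24 h in the inverse model passed the test. There the control libraries held 52.8, 46.4 and 54.8 FPKM of Tgfb3 and the co-culture libraries 28.2, 30.5 and 21.6, so that the groups were far apart. Tgfb3 fell to 0.522 of its control level (log2 fold change −0.94, SE 0.15, limma adjusted p = 0.017). With 1 library left out the adjusted p lay between 0.0099 and 0.090, and the call was lost without any one of the 3 control libraries, at 0.079, 0.060 and 0.090. Later, at 72 h, the control libraries held 30.3, 36.9 and 35.6 FPKM and the co-culture libraries 22.04, 19.1 and 29.8, again without overlap, at a log2 fold change of −0.55 (SE 0.17, adjusted p = 0.074). Without co-culture replicate 3 it was −0.72 and passed, with an adjusted p of 0.016, as it did on the recovered fragments (−0.55, adjusted p = 0.048). Scaling by the median of gene ratios gave −0.39 (adjusted p = 0.20). Of the exons of Tgfb3, 420 bases overlap genes on the other strand. Counting disregarded strand, and the effect of this overlap on the values was not tested.

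Tgfb3 had a wide spread in the standard model, where replicate 1 stood apart. At 72 h the control libraries held 114, 29.3 and 28.2 FPKM and the co-culture libraries 23.9, 16.3 and 22.3. The groups did not overlap, at a log2 fold change of −1.13 (SE 0.54, adjusted p = 0.79), and without replicate 1 it was −0.58 (SE 0.18, adjusted p = 0.29). At 24 h the control libraries held 135, 28.0 and 29.0 FPKM and the co-culture libraries 63.3, 22.6 and 25.7, which overlapped, although each co-culture library was below the control with its number. The log2 fold change at 24 h was −0.52 (SE 0.71, adjusted p = 1.00) and without replicate 1 it was −0.24 (SE 0.11, adjusted p = 0.65). Without control replicate 1 alone it turned to 0.22.

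Tgfb2 held 15.6, 13.7 and 15.3 FPKM in the inverse controls at 24 h and 8.29, 7.28 and 10.6 in co-culture. The groups did not overlap and the log2 fold change was −0.75 (SE 0.16), at an adjusted p of 0.0508 that just missed the limit. It passed without co-culture replicate 3, with a pseudocount of 1, on genes with a mean above 5 FPKM and on the recovered fragments, at adjusted p values of 0.014, 0.0497, 0.041 and 0.021. After 72 h the inverse controls held 8.4, 16.5 and 14.9 FPKM and the co-culture libraries 6.32, 7.20 and 17.2, so that replicate 3 of the co-culture was the highest of all 6 (log2 fold change −0.44, SE 0.39, adjusted p = 0.47). Among standard libraries at 72 h all 3 of the co-culture, at 5.05, 4.21 and 5.85 FPKM, were below the controls, at 42.1, 7.01 and 7.21 (log2 fold change −1.30, SE 0.67, adjusted p = 0.80, and −0.48, SE 0.21, without replicate 1). At 24 h the standard controls held 43.8, 5.17 and 8.34 FPKM and the co-culture libraries 21.3, 5.25 and 7.17, and the groups overlapped. Of the exons of Tgfb2, 124 bases overlap a gene on the other strand.

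The shares of the TGF-beta ligand genes in their summed FPKM do not depend on how the libraries are scaled against each other. In the inverse model at 24 h Tgfb1 made up 30.4% ± 0.57 (SD, n = 3) of the sum in control PSC and 53.3% ± 4.46 in co-culture, and Tgfb3 54.0% ± 0.69 and 35.3% ± 6.49. At 72 h the share of Tgfb1 was 37.0% ± 4.07 in control PSC and 54.6% ± 1.89 in co-culture, and that of Tgfb3 45.7% ± 0.30 and 32.3% ± 2.00. In both comparisons every co-culture library had a higher share of Tgfb1 and a lower share of Tgfb3 than every control library. An exact permutation test of 3 libraries against 3 cannot go below p = 0.1 and was not run.

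The mean share of Tgfb1 in the standard model was 38.5% ± 18.3 in control PSC and 54.0% ± 12.3 in co-culture at 24 h, where the libraries overlapped. It was 37.7% ± 23.5 and 61.5% ± 7.48 at 72 h, where the highest control, at 54.9%, was just above the lowest co-culture library, at 54.7%. The level of the shares depends on gene length: per kilobase of the longest transcript Tgfb1 made up 19.7% of the sum in inverse control PSC at 24 h and 39.6% in co-culture, and Tgfb3 was above Tgfb1 in the mean of every group. These ratios were looked at after the single genes.

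**Figure D2:**
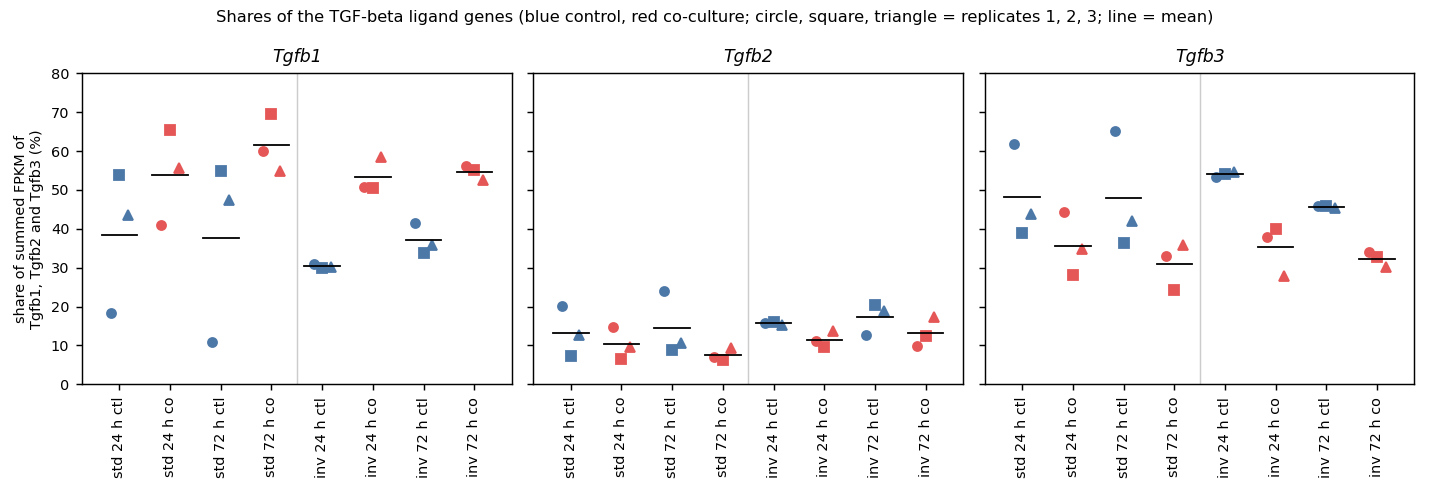
Share of Tgfb1, Tgfb2 and Tgfb3 in their summed FPKM (%, linear axis) in the 8 groups. Points are libraries, their shape the replicate number, blue for control PSC and red for co-cultured PSC, and black lines are means; in the inverse model at 24 h Tgfb1 moves from a mean of 30.4% in controls to 53.3% in co-culture and Tgfb3 from 54.0% to 35.3%.

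Inhba (chr13:16011851-16031621, + strand), which encodes the subunit of activin A, varied more between libraries than between groups. In the standard controls it held 61.9, 10.2 and 22.1 FPKM at 24 h, and 62.3, 13.04 and 24.4 in co-culture, so that each library lay close to the one with its number. At 72 h the standard controls held 58.6, 6.14 and 16.02 FPKM and the co-culture libraries 27.8, 19.1 and 19.5, where replicate 1 was lower and replicates 2 and 3 higher in co-culture (log2 fold change 0.26, SE 0.74, limma adjusted p = 0.97). Inverse co-culture libraries at 24 h held 13.7, 17.3 and 48.5 FPKM against 31.7, 28.7 and 23.6 in control PSC (log2 fold change −0.29, SE 0.39, adjusted p = 0.80). At 72 h they held 31.9, 21.4 and 58.7 FPKM against 15.2, 22.9 and 19.7 (log2 fold change 0.83, SE 0.34, adjusted p = 0.13). Replicate 3 was the highest co-culture library at both times. Without it the log2 fold change at 24 h was −0.83 and passed the limit (adjusted p = 0.030), and at 72 h the change passed, at 1.16 (adjusted p = 0.039), without replicate 2. The difference between the times, of 1.12 (SE 0.59), had an adjusted p of 0.51.

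Ltbp1 (chr17:75005568-75392512, + strand), whose product tethers latent TGF-beta to the matrix, fell in inverse co-culture at 72 h. The control libraries held 15.4, 12.1 and 15.2 FPKM and the co-culture libraries 7.99, 10.6 and 7.30, without overlap, at a log2 fold change of −0.70 (SE 0.18, limma adjusted p = 0.040). At 24 h the inverse controls held 11.1, 8.38 and 8.05 FPKM and the co-culture libraries 9.86, 8.69 and 12.3, which overlapped (log2 fold change 0.16, SE 0.18, adjusted p = 0.76). The call at 72 h was lost when the libraries were scaled by the median of gene ratios (−0.55, adjusted p = 0.079) or quantile-normalized (−0.52, adjusted p = 0.091) and without any 1 library other than co-culture replicate 2 (adjusted p between 0.053 and 0.14). Standard libraries of Ltbp1 ranged from 5.13 to 13.9 FPKM and the groups overlapped at both times. Not all fragments of Ltbp1 came out whole, so its length is less certain than that of the other 9 genes.

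Ltbp2 (chr12:84783212-84876532, − strand), whose product sits on fibrillin microfibrils and does not bind latent TGF-beta, varied least. Its group means ranged from 474 ± 60.2 FPKM (SD, n = 3) in inverse co-culture at 72 h to 690 ± 69.7 after 24 h of standard co-culture, a ratio of 1.46, and the groups overlapped in all 4 comparisons. Its log2 fold changes in co-culture lay between −0.09 and 0.08, with 95% confidence intervals that reached from −0.41 to 0.48 at most. Of its exons, 764 bases overlap a gene on the other strand.

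Tgfbr1 (chr4:47353222-47414931, + strand), the gene of the type I receptor, was the member whose co-culture and control libraries separated in all 4 comparisons. At 24 h in the inverse model the controls held 82.2, 84.2 and 73.3 FPKM and the co-culture libraries 122, 124 and 137. Tgfbr1 rose 1.60-fold (log2 fold change 0.67, SE 0.10, limma adjusted p = 0.016). With 1 library left out the adjusted p lay between 0.014 and 0.079, and the call was lost without control replicate 1, 2 or 3 or co-culture replicate 2 (0.069, 0.060, 0.079 and 0.061). At 72 h the controls held 103, 85.2 and 102 FPKM and the co-culture libraries 133, 140 and 111, at a log2 fold change of 0.40 (SE 0.13, adjusted p = 0.073), which passed under scaling by the median of gene ratios (0.56, adjusted p = 0.027), under quantile normalization (0.48, adjusted p = 0.035) and without co-culture replicate 3 (0.50, adjusted p = 0.030).

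Tgfbr1 in the standard model held 60.3, 89.3 and 89.0 FPKM in controls at 24 h and 138, 113 and 128 in co-culture. At 72 h it held 74.3, 85.5 and 101 in controls and 147, 111 and 150 in co-culture. The log2 fold changes were 0.68 (SE 0.19, adjusted p = 1.00) and 0.64 (SE 0.18, adjusted p = 0.72), and without replicate 1 they were 0.43 and 0.47 (adjusted p = 0.52 and 0.33). Of 12253 genes tested in all 4 comparisons, 72 (0.588%) were higher in co-culture without overlap in each of them, and Tgfbr1 was the member among these. No member was among the 78 (0.637%) that were lower in each.

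Tgfbr2 (chr9:116084293-116175360, − strand), the gene of the type II receptor that binds the ligand, had higher levels in inverse co-culture at both times, but no comparison of co-culture with control passed the test. At 24 h the controls held 33.0, 30.4 and 32.4 FPKM and the co-culture libraries 38.6, 39.5 and 49.8 (log2 fold change 0.40, SE 0.13, adjusted p = 0.16). At 72 h they held 47.2, 47.9 and 44.0 FPKM against 60.8, 76.7 and 51.6 (0.42, SE 0.15, adjusted p = 0.097). The groups did not overlap at either time, and at 72 h the change passed under scaling by the median of gene ratios (0.58, adjusted p = 0.047), under quantile normalization (0.55, adjusted p = 0.0499) and without co-culture replicate 3 (0.55, adjusted p = 0.030). Replicate 1 of the standard controls was low at both times, with 22.7 and 24.7 FPKM against 33.6 to 55.8 in the other controls, and the groups overlapped.

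Smad7 (chr18:75367529-75395935, + strand), the feedback inhibitor that TGF-beta itself is known to induce, did not pass in any co-culture comparison. Its log2 fold changes at 24 h and 72 h were 0.035 and −0.10 with distant and −0.20 and 0.13 with close KPC cells, and the groups overlapped each time. The 95% confidence intervals reached from −0.59 to 0.40 at most. In control PSC of the inverse model it held 124, 127 and 96.4 FPKM at 24 h and 68.1, 69.2 and 70.8 at 72 h, without overlap.

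Tgfbi (chr13:56609523-56639562, + strand), whose product is a matrix protein named after its induction by TGF-beta, fell in inverse co-culture at 72 h. The controls held 11.99, 14.1 and 11.1 FPKM and the co-culture libraries 5.1, 6.4 and 2.22, so that all 3 were lower. Its level was 0.367 of that of the control on the log2(FPKM + 0.5) scale (log2 fold change −1.45, SE 0.33, limma adjusted p = 0.030), and with median-ratio scaling it was −1.30 and still called (adjusted p = 0.047). The adjusted p lay between 0.012 and 0.092 with 1 library left out, and the call was lost without co-culture replicate 1 (0.072) or any one of the 3 controls (0.090, 0.084 and 0.092). At 24 h the inverse controls held 11.6, 11.2 and 14.7 FPKM and the co-culture libraries 16.8, 12.02 and 9.22, with a log2 fold change of −0.01 (SE 0.22, adjusted p = 0.99). Standard libraries of Tgfbi ranged from 4.20 to 16.3 FPKM, and the groups overlapped at both times.

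Markers of other cells differed between the inverse groups at 72 h. The 6 adipocyte markers, all of them above an FPKM of 1 in the group means, summed to 1680 to 2488 FPKM in control PSC and 409 to 953 in co-culture, and the 8 macrophage and leukocyte markers to 111 to 206 and 47.0 to 75.1. None of the latter was at 0 in all 3 libraries of a group. At 24 h both lists overlapped between the inverse groups. The 10 PSC and fibroblast markers also separated at 72 h, with sums of 11302 to 14723 FPKM in inverse controls and 15755 to 17808 in co-culture. Col1a1 and Col1a2 carried these sums, with means of 5789 and 3527 in controls and 9044 and 5192 in co-culture. Des and Pdgfra had higher means in co-culture too, whereas Vim, Acta2, Gfap, Pdgfrb, Dcn and Lum had lower ones. The 4 mesothelial markers summed to 20.2 to 24.3 FPKM in inverse controls at 24 h and 30.5 to 33.8 in co-culture. Wt1 carried these sums, with means of 21.7 and 30.7, while Msln went from 0 to 0.919, Upk3b from 0.544 to 0.227, and Lrrn4 stayed at 0. The 5 acinar markers summed to 15.2 to 18.1 FPKM in inverse controls at 72 h and 10.7 to 11.1 in co-culture. Cela1 alone carried these sums, with means of 16.3 and 10.9, and Cpa1, Prss2, Ctrb1 and Cel had means of 0 in both groups. The 12 markers of epithelial and KPC cells summed to 1.27 to 2.03 FPKM in inverse controls at 24 h and to 3.46, 45.9 and 8.51 in co-culture, so that all 3 were above the controls. The mean of Krt8 was 0 in these controls and 5.74 in co-culture, that of Krt18 0 and 4.32, that of Krt19 0.288 and 5.26, that of Krt7 0 and 1.37 and that of Cdh1 0 and 0.375, whereas Epcam reached 0.12 FPKM at most and Grhl2 was at 0 in all 24 libraries. Without co-culture replicate 2, the library with the highest sum, the log2 fold change was −1.04 for Tgfb3 (adjusted p = 0.042) and 0.70 for Tgfbr1 (adjusted p = 0.061). At 72 h the markers of epithelial and KPC cells summed to 6.80, 2.93 and 2.50 FPKM in inverse controls. In co-culture they summed to 7.18, 4.77 and 11.1 FPKM, and the groups overlapped. Krt8 had means of 0 and 1.38, Krt18 of 0 and 0.537 and Krt19 of 0.097 and 2.04, whereas Muc1 had 3.9 and 3.2. The part of any of these cells in the results was not tested, and in bulk RNA fewer cells of a type and less RNA per cell cannot be told apart.

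**Figure D3:**
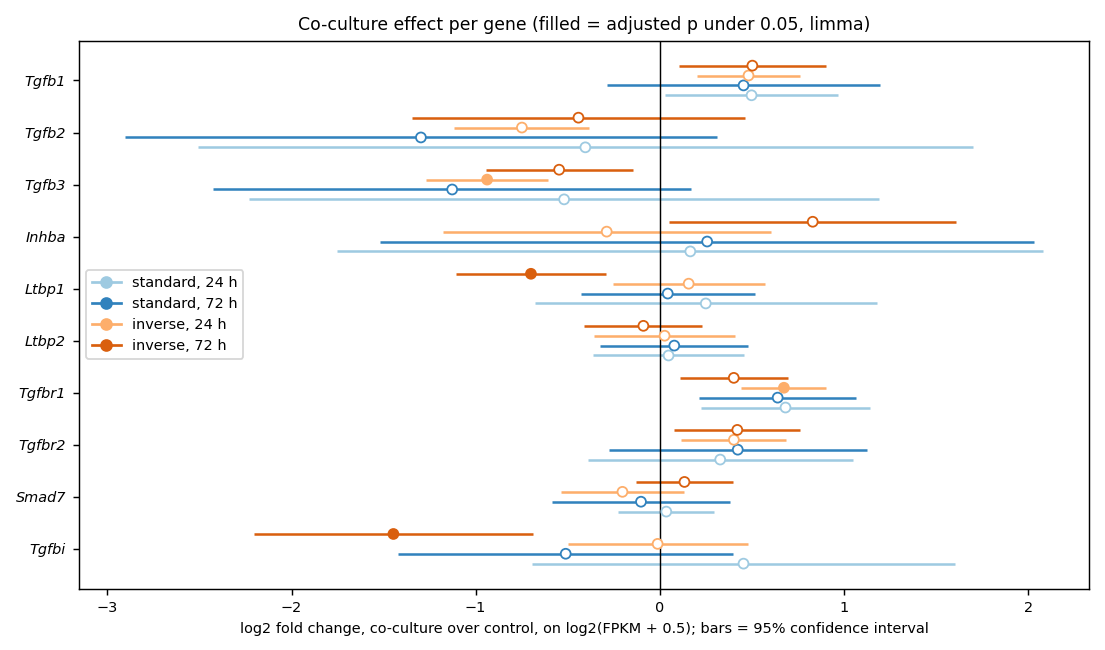
Log2 fold change of co-cultured over control PSC for the 10 genes in the 4 comparisons, on log2(FPKM + 0.5), with 95% confidence intervals from limma over 3 libraries against 3. Filled points passed an adjusted p of 0.05, namely Tgfb3 and Tgfbr1 in the inverse model at 24 h and Ltbp1 and Tgfbi at 72 h; the intervals of Tgfb2, Tgfb3 and Inhba are wide in the standard model.

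By count, 1 of the 10 genes was called higher (Tgfbr1) and 1 lower (Tgfb3) in inverse co-culture at 24 h, where 1.08% of all 12827 genes tested were called higher and 1.39% lower. At 72 h none was called higher and 2 were called lower (Ltbp1 and Tgfbi), where 3.27% of 13066 genes were called higher and 9.57% lower. Of the standard model 0 of the 10 genes and 0% of all genes were called at either time by limma, and 371 and 800 genes had an unadjusted p under 0.05. Of the 10 genes, 2 at 24 h (Tgfb1 and Tgfbr1) and 1 at 72 h (Tgfbr1) did so. With DESeq2 on counts the study reported differentially expressed genes in standard co-culture at both times, so the lack of calls belongs to this fit.

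Groups that did not overlap were more frequent. In the inverse model 3 of the 10 genes were higher without overlap at 24 h and 3 at 72 h (Tgfb1, Tgfbr1 and Tgfbr2 each time), where 7.38% and 9.53% of all genes were. Lower without overlap were 2 at 24 h (Tgfb2 and Tgfb3) and 3 at 72 h (Tgfb3, Ltbp1 and Tgfbi), where 13.8% and 28.8% of all genes were. Standard co-culture had 2 of the 10 higher at 24 h (Tgfb1 and Tgfbr1, against 3.35% of all genes) and 1 at 72 h (Tgfbr1, against 3.36%), with 0 lower at 24 h (4.38%) and 2 at 72 h (Tgfb2 and Tgfb3, 9.78%). For inverse co-culture the median log2 fold change of the 10 genes at 24 h and 72 h was 0.01 and 0.02, against −0.06 and −0.16 over all genes tested, and 0.21 and 0.06 in the standard model, against −0.01 and −0.09. Scaling by the median of gene ratios brought the median over all genes at 72 h in the inverse model from −0.16 to −0.01 and changed the calls there from 427 higher and 1251 lower to 746 and 686, and at 24 h from 139 and 178 to 179 and 145.

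A direct test asked whether the change with KPC cells was unequal in both models or at both times, and 0 of the 10 genes and 0% of all genes passed. The unadjusted p was under 0.05 in 182 and 501 of 14452 genes for the difference between the models at 24 h and 72 h, and in 141 of 13694 and 1471 of 13722 genes for that between the times in the standard and the inverse model. Tgfbi had the largest of these differences among the 10 genes, at −1.43 on the log2 scale between 72 h and 24 h in the inverse model (SE 0.43, adjusted p = 0.28), followed there by Inhba, at 1.12, and Ltbp1, at −0.86 (SE 0.26, adjusted p = 0.30). For Tgfbr1 the inverse effect at 24 h minus the standard effect was −0.01, with a 95% confidence interval of −0.48 to 0.46. Intervals were wide for Tgfb2, from −2.34 to 1.65 at 24 h, so these tests do not show that the effects were alike.

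Control PSC of the inverse model themselves differed between 24 h and 72 h. Tgfbr2 rose, from 31.9 ± 1.37 to 46.4 ± 2.09 FPKM (SD, n = 3, log2 fold change 0.53, SE 0.09, limma adjusted p = 0.0058), and Ltbp1 rose from 9.18 ± 1.68 to 14.2 ± 1.84 (0.61, SE 0.16, adjusted p = 0.030). Smad7 fell from 116 ± 16.8 to 69.4 ± 1.33 FPKM (−0.72, SE 0.11, adjusted p = 0.0046) and Tgfb3 from 51.3 ± 4.36 to 34.3 ± 3.5 (−0.58, SE 0.11, adjusted p = 0.0095). Of all 13092 genes, 10.2% were called higher and 9.05% lower at 72 h, against 2 and 2 of the 10 genes. With 1 library left out, Smad7, Tgfbr2 and Tgfb3 kept their calls, and Ltbp1 lost its call without replicate 2 or 3 at 24 h or replicate 1 or 3 at 72 h (adjusted p between 0.083 and 0.11). Inhba, at −0.53 (adjusted p = 0.055), passed without replicate 3 at 24 h (0.047) or replicate 2 at 72 h (0.025), and Tgfbr1, at 0.27 (adjusted p = 0.11), passed without the latter (0.039). In a fit of all 24 libraries Smad7 alone of the 10 genes was called. The adipocyte markers summed to 628 to 1057 FPKM at 24 h and to 1680 to 2488 at 72 h in these libraries, and the macrophage and leukocyte markers to 64.3 to 74.7 and 111 to 206. Controls of the standard model gave 0 calls among the 10 genes and 0% of 12963 genes, with 127 genes at an unadjusted p under 0.05. The control libraries enter both this comparison and those with co-culture.

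A further 80 genes of the pathway were taken as 6 lists, namely other ligands, latency and activation, other receptors, SMADs, regulators and antagonists, and response genes. In inverse co-culture at 24 h 3 of the 72 that were tested rose and 3 fell, where 1.08% of all genes were called higher and 1.39% lower. At 72 h 8 of 73 rose and 3 fell, where 3.27% and 9.57% of all genes did. These counts went with a median log2 fold change over the lists of −0.03 and −0.06, against −0.06 and −0.16 over all genes. Of the standard model 0 of 73 were called at either time. Under scaling by the median of gene ratios 10 rose and 1 fell at 72 h, where 746 of all 13066 genes were called higher and 686 lower.

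Among the SMADs, Smad3, which carries the signal of TGF-beta and activin into the nucleus, rose at 24 h from 43.1 ± 3.17 to 83.9 ± 16.3 FPKM (SD, n = 3, log2 fold change 0.94, SE 0.15, limma adjusted p = 0.017). It rose again at 72 h from 60.9 ± 2.10 to 114 ± 13.3 FPKM (0.90, SE 0.11, adjusted p = 0.0056). In the standard model, too, every co-culture library held more Smad3 than any control at both times, with log2 fold changes of 0.84 and 0.90 (adjusted p = 1.00 and 0.78). Smad2, which has the same role, had log2 fold changes between −0.14 and 0.00 in the 4 comparisons, and none passed. Smad6, an inhibitor of BMP signalling, fell at 72 h from 155 ± 14.2 to 85.9 ± 5.39 FPKM (−0.85, SE 0.10, adjusted p = 0.0058).

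Of 24 response genes, 2 rose and 2 fell at 24 h in inverse co-culture (1.08% and 1.39% of all genes), and 5 rose and none fell at 72 h (3.27% and 9.57% of all genes). Timp1, an inhibitor of matrix metalloproteinases, rose at both times, with log2 fold changes of 2.08 (SE 0.19, adjusted p = 0.0034) and 1.86 (SE 0.39, adjusted p = 0.023). Col3a1, a fibrillar collagen, rose at 24 h (0.59, SE 0.11, adjusted p = 0.030). The contractile genes Acta2 (alpha smooth muscle actin) and Cnn1 (calponin) fell at 24 h, Acta2 from 2849 ± 66.9 to 1415 ± 143 FPKM (−1.01, SE 0.11, adjusted p = 0.0051) and Cnn1 from 590 ± 23.9 to 307 ± 27.6. At 72 h Fn1 (fibronectin, 1.51, SE 0.17, adjusted p = 0.0047), Tnc (tenascin C, 1.55) and Lox (lysyl oxidase, 0.62) rose. The log2 fold change of Acta2 at 72 h was −0.25 (SE 0.33, adjusted p = 0.64).

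In the blocked fit of the standard model Timp1 (log2 fold change 1.5, limma adjusted p = 0.0097) and Fn1 (0.78, adjusted p = 0.027) rose at 24 h and Cdkn2b, an inhibitor of the cell cycle, fell (−0.68, adjusted p = 0.036). That fit called 85 of 12859 genes higher and 72 lower. The study lists Timp1 and Fn1 as differentially expressed in standard co-culture at 72 h but not at 24 h. Of the other lists, Lrrc32, which holds latent TGF-beta at the cell surface, rose at 72 h in inverse co-culture from 277 ± 19.9 to 561 ± 174 FPKM (0.98, SE 0.20, adjusted p = 0.023), and Fstl3, a secreted antagonist of activin, rose from 22.1 ± 0.88 to 42.4 ± 5.38 (0.92, SE 0.12, adjusted p = 0.0068). Mmp14, a membrane-bound protease of the matrix, fell at 72 h (−0.65, SE 0.12, adjusted p = 0.019), as did Tgfbrap1, which binds TGF-beta receptors (−0.47, SE 0.11, adjusted p = 0.028). Gdf15, a distant member of the ligand family, fell at 24 h (−0.74, SE 0.11, adjusted p = 0.016).

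With any 1 library left out, Timp1, Acta2 and Cnn1 kept their calls at 24 h, and Smad3, Smad6, Fstl3 and Fn1 at 72 h. Smad3, Col3a1 and Gdf15 lost theirs at 24 h without any 1 control or co-culture replicate 2, at adjusted p values of 0.068 to 0.083, 0.12 to 0.15 and 0.061 to 0.083. At 72 h Lox (0.060 to 0.15) lost its call without any 1 control or co-culture replicate 1 or 3, Tgfbrap1 (0.054 to 0.11) without any 1 control or co-culture replicate 1 or 2, and Lrrc32 (0.059 to 0.085) without any 1 control or co-culture replicate 1. Timp1 lost its call at 72 h without control replicate 2 or 3 or co-culture replicate 1 (0.069 to 0.094), Tnc without control replicate 1 or 3 (0.050 and 0.060), and Mmp14 without control replicate 3 or co-culture replicate 1 (0.080 and 0.074). Median-ratio scaling left 1 pathway gene called lower at 72 h, against 3 in the main fit, and Mmp14 was among those that lost the call (0.058).

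**Figure D4:**
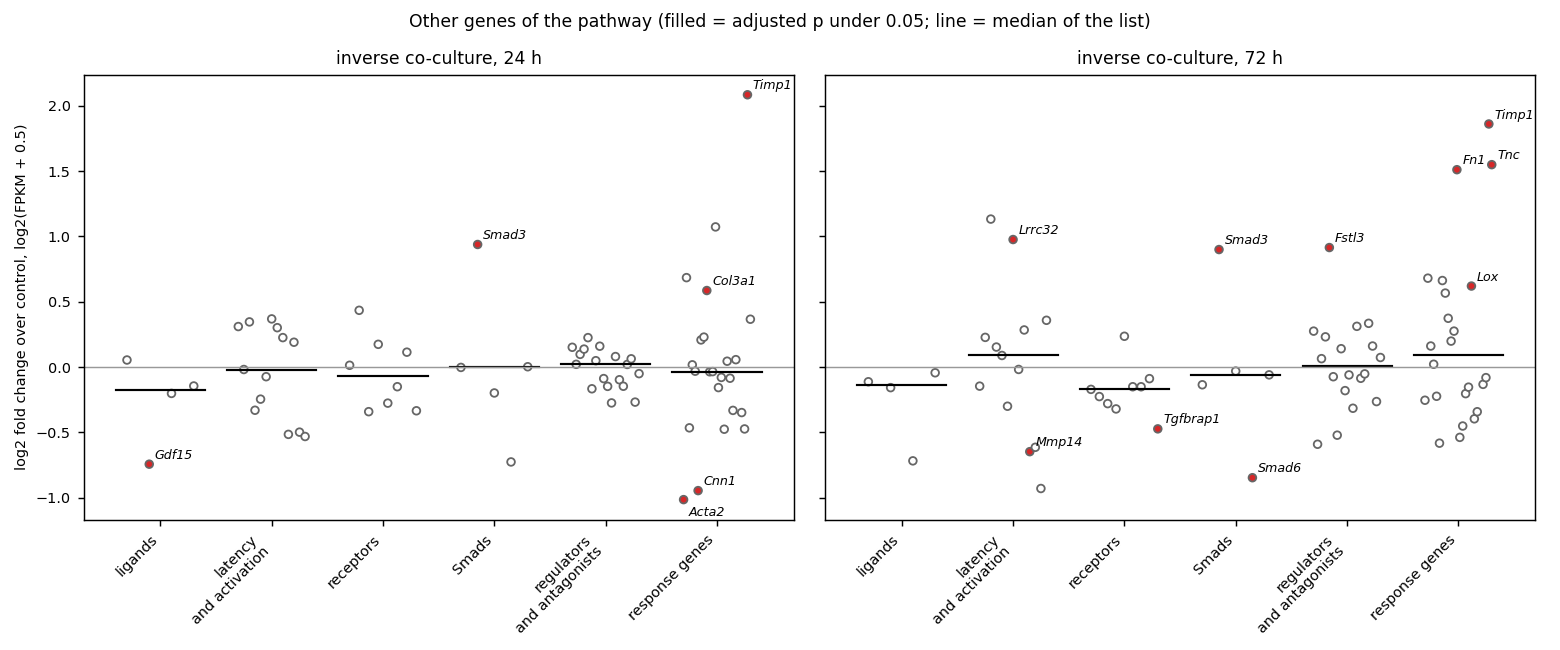
Log2 fold change of co-cultured over control PSC, on log2(FPKM + 0.5), of the other pathway genes by list, in the inverse model at 24 h (left) and 72 h (right). Each point is a gene, filled and named where it passed an adjusted p of 0.05, and black lines are the medians of the lists; 1 response gene is not drawn. Smad3 and Timp1 are filled at both times, and Acta2 and Cnn1 lie near −1 at 24 h alone.

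In control PSC of the inverse model, 7 of 73 pathway genes rose and 14 fell from 24 h to 72 h, where 10.2% and 9.05% of all genes did, and 8 of those that fell were response genes. Acta2 fell from 2849 ± 66.9 to 1082 ± 296 FPKM (log2 fold change −1.43, SE 0.19, adjusted p = 0.0026), with Cnn1 (−1.30), Tagln (−0.91), Tnc (−0.84), Tgfb1i1 (−0.68) and Ccn2 (−0.67). Smad6 (−1.11, SE 0.09, adjusted p = 0.0012) and Fst, the gene of the activin antagonist follistatin (−0.69, SE 0.10, adjusted p = 0.0032), fell too. Acvr1b, a type I receptor of activin (0.81, SE 0.11, adjusted p = 0.0030), Mmp2 (0.70) and Col3a1 (0.52) rose. Of these genes Ccn2 lost its call without any 1 library other than replicate 3 at 72 h (adjusted p = 0.060 to 0.13), as did Col3a1 (0.070 to 0.15), and Tnc lost it without replicate 1 or 2 at 24 h (0.050 and 0.053) and Tgfb1i1 without replicate 1 at 72 h (0.054). With all 24 libraries in one fit 1 of the 73 genes was called.

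Over the 24 libraries the 10 genes fell into a few patterns, given here as descriptions, since the libraries fall into groups and are not independent points. Tgfb2 and Tgfb3 had Pearson's r of 0.91 on log2(FPKM + 0.5), and 0.77 over the 20 libraries without replicate 1 of the standard model. Tgfb3 went against Tgfbr2 (−0.88, and −0.77 over the 20) and Tgfbr1 (−0.71, and −0.77), and both receptor genes went together (0.65, and 0.61). Tgfb2 with Inhba had 0.70, and 0.55 over the 20, while Tgfb3 with Inhba had 0.53, and 0.11 over the 20.

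**Figure D5:**
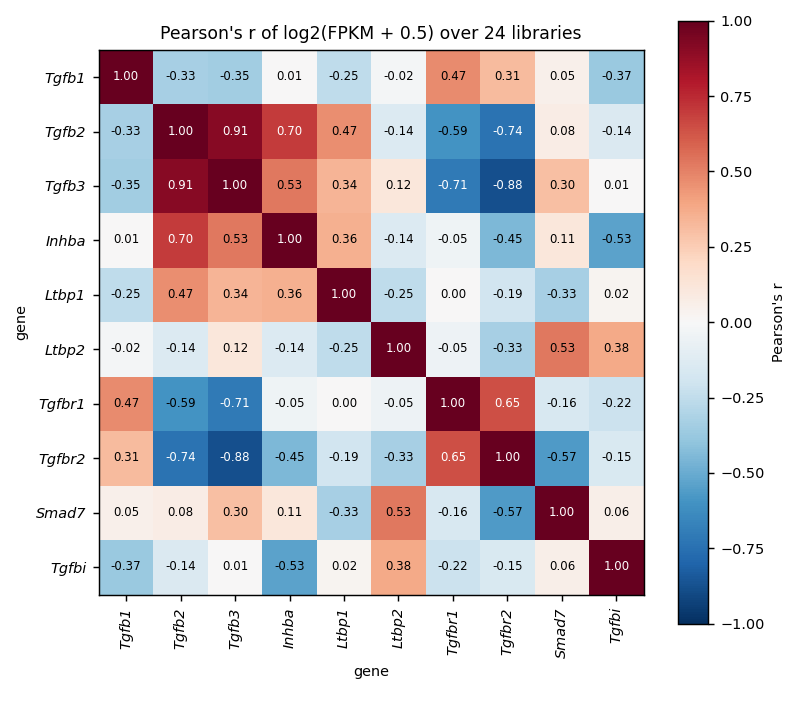
Pearson's r of log2(FPKM + 0.5) between the 10 genes over the 24 libraries, red for positive and blue for negative values. Tgfb2 and Tgfb3 form the strongest positive pair, at 0.91, and Tgfb3 with Tgfbr2 the strongest negative pair, at −0.88.

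Of 14440 genes compared, the one most like each member over the 24 libraries was Fgf2 for Tgfbr1 (r = 0.96), Fbln1 for Tgfbr2 (0.95), Exoc6b for Tgfb3 (0.94), Ccnd2 for Inhba (0.94) and Trim16 for Tgfb2 (0.93). The likeness was looser for Tgfbi (Psd4, 0.83), Tgfb1 (Ttc7, 0.82), Smad7 (Eif3m, 0.78), Ltbp1 (Gm9949, 0.73) and Ltbp2 (Defb42, 0.72). Without replicate 1 of the standard model these values were 0.67 to 0.94. Gm9949 and Defb42 had low levels, with means of 0.846 and 1.54 FPKM, near the filter limit of 1 FPKM.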

How the data were processed

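Per the labels and the study's methods, reads were aligned with HISAT2 2.0.5 to GRCm38 and counted per gene with featureCounts 1.5.0-p3 without strand, and the authors deposited FPKM values. DESeq2 1.20.0 was used by the authors on counts that are not used here. The 10 genes and all lists were chosen with earlier results of these data known. Genes were matched to GENCODE M21 (53706 of 53801). With the mean length of a gene's annotated transcripts, 96.1% of low values were whole multiples of 1 fragment within 0.01, which gave the depth of each library, and 27495 of 28849 genes above 0 were whole in all libraries (95.3%). The release used by the authors is not given in the sources used here.

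limma 3.58.1 (R 4.3.3) with an intensity trend was run on log2(FPKM + 0.5), two-sided, on genes above 1 FPKM in at least 3 libraries of a fit, with Benjamini-Hochberg adjustment over these genes and a limit of 0.05. Fits held the 6 libraries of a co-culture and its control, all 24 for the models, and the 12 of a model for the times. Fold changes on this scale understate those of low genes. The study calls the replicates biological and the labels give only their number, so p-values measure the spread between these libraries, which may be in part technical. In the standard model deviations of same-numbered libraries correlated at 0.48 to 0.82, and in the inverse model at −0.17 to 0.15. All 10 genes are named, and of other pathway genes those called, or the 12 with the largest change that moved the same way in all 3 same-numbered pairs. Smad2 and Acta2 at 72 h, the genes called in the blocked fit and the shares of the ligand genes were picked with values in view. 1 response gene is counted in its list but not reported here. Simulated data served to test the scripts. Python 3.11.15, numpy 2.4.6, pandas 2.3.3 and matplotlib 3.10.9 were used.

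Alternatives were pseudocounts of 1 and 0.1, no filter, a mean FPKM above 5, median-ratio scaling, quantile normalization, no trend, the replicate number as a block, voom on recovered fragments, other libraries in the fit and each library left out. The fits without replicate 1 of both arms, the lengths behind the fragments and the GC box and TATA box searches were chosen after the data were seen.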

Additional observations from a re-analysis of the deposited data

How the results depend on the processing

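Calls among the 10 genes were close to the limit. In inverse co-culture at 24 h, where 2 were called, 0 were called with no filter on low FPKM, no intensity trend, the replicate block or all 24 libraries in one fit, and 0 to 4 with 1 library left out. At 72 h, where 2 were called, 4 were called with median-ratio scaling, 0 with no filter, 1 with no intensity trend, the replicate block or all 24 libraries, and 0 to 4 with 1 library left out. With the replicate block 1 was called in standard co-culture at 24 h. In inverse controls over time, where 4 were called, 1 was called with all 24 libraries. Where calls were lost, the fits with no filter tested more genes, and the cause was not tested otherwise.

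Of the other pathway genes, 6 were called in inverse co-culture at 24 h, against 2 with no filter, 3 with no intensity trend, 1 with all 24 libraries and 3 to 9 with 1 library left out. At 72 h 11 were called, against 6 with no filter and 4 to 12. In inverse controls over time 21 were called, against 9 with no filter, 13 with no intensity trend, 1 with all 24 libraries and 10 to 20. In standard co-culture 3 were called with the replicate block at 24 h and 1 with all 24 libraries at 72 h. Over all genes, the inverse calls at 24 h went from 317 to 50 (no filter), 98 (no trend), 88 (block), 520 (voom) and 11 (all 24), those at 72 h from 1678 to 888, 902 (block) and 897 (all 24), and those of the inverse controls from 2516 to 1425 and 225. The standard counts of 0 became 157 at 24 h and 1 at 72 h with the block, and 5 and 36 with all 24 libraries. The inverse replicate numbers share only a number, and each library correlated best with its own number in 2 of 9 cases there.

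Of 820 refits of the 10 genes in the co-culture comparisons and the inverse controls, 726 kept direction and call, 40 lost a call, 24 gained one and 30 turned direction. Those that turned without a library left out were Tgfbi at 24 h in the inverse model (0.047 with median-ratio scaling, 0.060 with quantile normalization, 0.027 with voom), Ltbp2 there at 72 h (0.072 with median-ratio scaling) and Ltbp2 in inverse controls over time (0.15 with quantile normalization). With libraries left out, log2 fold changes in standard co-culture at 24 h ranged from −1.01 to 0.48 for Tgfb2, −0.98 to 0.22 for Tgfb3, −0.44 to 0.83 for Inhba, −0.068 to 0.61 for Ltbp1, −0.058 to 0.13 for Ltbp2 and −0.021 to 0.08 for Smad7 (−0.021 without replicate 1 of both arms). At 72 h they ranged from −0.49 to 1.09 for Inhba, −0.066 to 0.29 for Ltbp1, −0.032 to 0.20 for Ltbp2 and −0.30 to 0.079 for Smad7. In inverse co-culture at 24 h they ranged from −0.83 to 0.063 for Inhba, −0.14 to 0.19 for Ltbp2 and −0.23 to 0.19 for Tgfbi, and at 72 h from −0.17 to 0.014 for Ltbp2. In inverse controls over time they ranged from −0.39 to 0.075 for Tgfb2 and −0.10 to 0.11 for Tgfbi. The smallest count of the 10 genes in a library was 65 fragments, and the effect of depth on their calls was not tested.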
